A study of Mus musculus with 6 samples.

Results

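The 10 genes described here encode parts of the bone morphogenetic protein (BMP) pathway in the embryonic mouse lung, and all 10 were found by gene symbol among the 14162 genes measured. They are the secreted ligands Bmp4, Bmp5 and Bmp7, the ligand-binding antagonist Nog, the receptors Bmpr1a and Bmpr2, the inhibitory Smads Smad6 and Smad7, and the target genes Id1 and Id3. RNA was sequenced from whole lungs at stage E12.5 in 2 groups of 3 libraries. The Dnmt1KO group is labelled ShhCre-Dnmt1KO, that is, with a knockout of Dnmt1 that depends on a Cre recombinase expressed where Shh is. Dnmt1 encodes the methyltransferase that maintains DNA methylation through cell division. Shh is active in the epithelium that lines the lung buds, so mesenchyme, vessels and blood in the same libraries are outside the Cre lineage. The WT group came from wild-type littermates. Only the Dnmt1KO group is labelled with Cre, so any effect of that allele cannot be told apart from the loss of Dnmt1. Since no label ties a library to an embryo of its own, p-values cover only the spread between libraries, which may in part be technical.

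BMP ligands bind a pair of type I and type II receptors, and the type I receptor then phosphorylates Smad1, Smad5 or Smad9, which enter the nucleus with Smad4. Id genes are among the most direct targets, and Smad6 and Smad7 are induced as feedback inhibitors. In the budding mouse lung Bmp4 is known for its strong expression in the epithelium at the distal tips, Bmp7 for expression in the epithelium and Bmp5 for expression in the mesenchyme. Noggin, the product of Nog, binds BMPs outside the cell and keeps them from their receptors.

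Promoter sequences were matched by symbol for 6 of the 10 genes in a RefSeq table of build GRCm38.p6. Because DNMT1 acts on CpG dinucleotides, the promoters with the fewest and the most CpG among the 6, those of Bmp5 and Bmpr1a, are shown with that of Bmp4, the gene with the largest fold change of the 10. Each is the 250 bases before the start annotated in that table, 5′ to 3′ on the strand of the gene, with CpG in capitals. Bmp5 lies at chr9:75775115-75775364 on the plus strand, Bmp4 at chr14:46390670-46390919 on the minus strand and Bmpr1a at chr14:34502547-34502796 on the minus strand.
Bmp5: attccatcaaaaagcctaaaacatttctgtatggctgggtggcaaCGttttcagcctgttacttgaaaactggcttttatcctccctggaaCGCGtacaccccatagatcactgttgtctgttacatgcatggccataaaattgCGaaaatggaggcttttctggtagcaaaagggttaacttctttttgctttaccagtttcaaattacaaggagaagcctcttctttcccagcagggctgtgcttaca
Bmp4: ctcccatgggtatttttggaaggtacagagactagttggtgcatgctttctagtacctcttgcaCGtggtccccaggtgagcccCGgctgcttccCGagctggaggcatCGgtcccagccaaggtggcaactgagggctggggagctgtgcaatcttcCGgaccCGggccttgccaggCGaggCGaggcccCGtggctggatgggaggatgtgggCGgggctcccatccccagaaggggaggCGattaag
Bmpr1a: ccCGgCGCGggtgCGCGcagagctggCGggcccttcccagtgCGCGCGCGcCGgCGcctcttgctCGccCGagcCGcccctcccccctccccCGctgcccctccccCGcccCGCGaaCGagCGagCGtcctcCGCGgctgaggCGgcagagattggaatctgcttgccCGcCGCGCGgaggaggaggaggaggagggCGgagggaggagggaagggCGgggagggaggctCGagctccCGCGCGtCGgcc
Bmp5 has 4 CpG in this window and Bmp4 has 11. The other promoters hold 18 (Id3), 22 (Bmpr2), 27 (Smad6) and 36 (Bmpr1a). By the gene bounds of GENCODE vM21, a separate annotation, the windows of Id3, Bmpr2 and Bmpr1a lie inside the gene rather than before its first base. The median over the 32851 promoters of the table is 6, with quartiles of 2 and 16, and 92.1% of them hold at least 1. The letters GGCGCC, a GC-rich motif that BMP-activated Smads can bind and that reads the same on both strands, occur in the promoters of Bmpr1a and Bmpr2 and in 9.59% of all promoters. Methylation was not measured in these libraries.

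The whole tables give the setting. The reads recovered from the deposited log2 values came to between 18192629 and 21046831 in the Dnmt1KO libraries and between 20599736 and 25597662 in the WT libraries. On the log2 scale, Dnmt1 itself measured 15.57, 15.40 and 15.31 in Dnmt1KO replicates 1, 2 and 3, against 15.72, 15.74 and 15.76 in WT replicates 1, 2 and 3 (log2 fold change -0.31 ± 0.09 SE, limma adjusted p = 0.507). The groups were apart, with Dnmt1KO lower, but the difference did not pass the test, and these whole-lung values include cells outside the Cre lineage. All 8 markers of lung epithelium and all 8 of lung mesenchyme were measured. Their summed levels, in reads scaled to the library total (CPM), were 566 to 869 and 2330 to 2970 in Dnmt1KO and 652 to 795 and 2360 to 2860 in WT. Dnmt1KO replicate 1 held 3 reads over 4 Y-linked genes and the other 5 libraries held between 4155 and 5207. That library thus held next to no RNA from male embryos, unlike the other 5, so it differs from them in sex as well. In these bulk samples, fewer cells of a type and less RNA per cell cannot be told apart.

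None of the 10 BMP genes passed limma's test over all genes, in either direction, at an adjusted p of 0.05. Over all 14162 genes 0.290% passed, with 0.282% higher and 0.00706% lower in Dnmt1KO. At an unadjusted p under 0.05 there were 2 of the 10, Bmp4 and Id1, against 4.52% of all genes. Voom on the recovered reads gave the same counts of 0 and 2, against 0.177% and 4.36% of all genes. In the same 2 genes, 20% of the 10, the groups did not overlap, as was the case for 8.78% of all genes. The fold change was positive in 5 of the 10 and negative in 5, with values from -0.18 to 0.34 on the log2 scale. The 95% confidence interval of the difference lay within 2-fold for all 10, with fold bounds between 0.647 and 1.53.

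**Figure D1:**
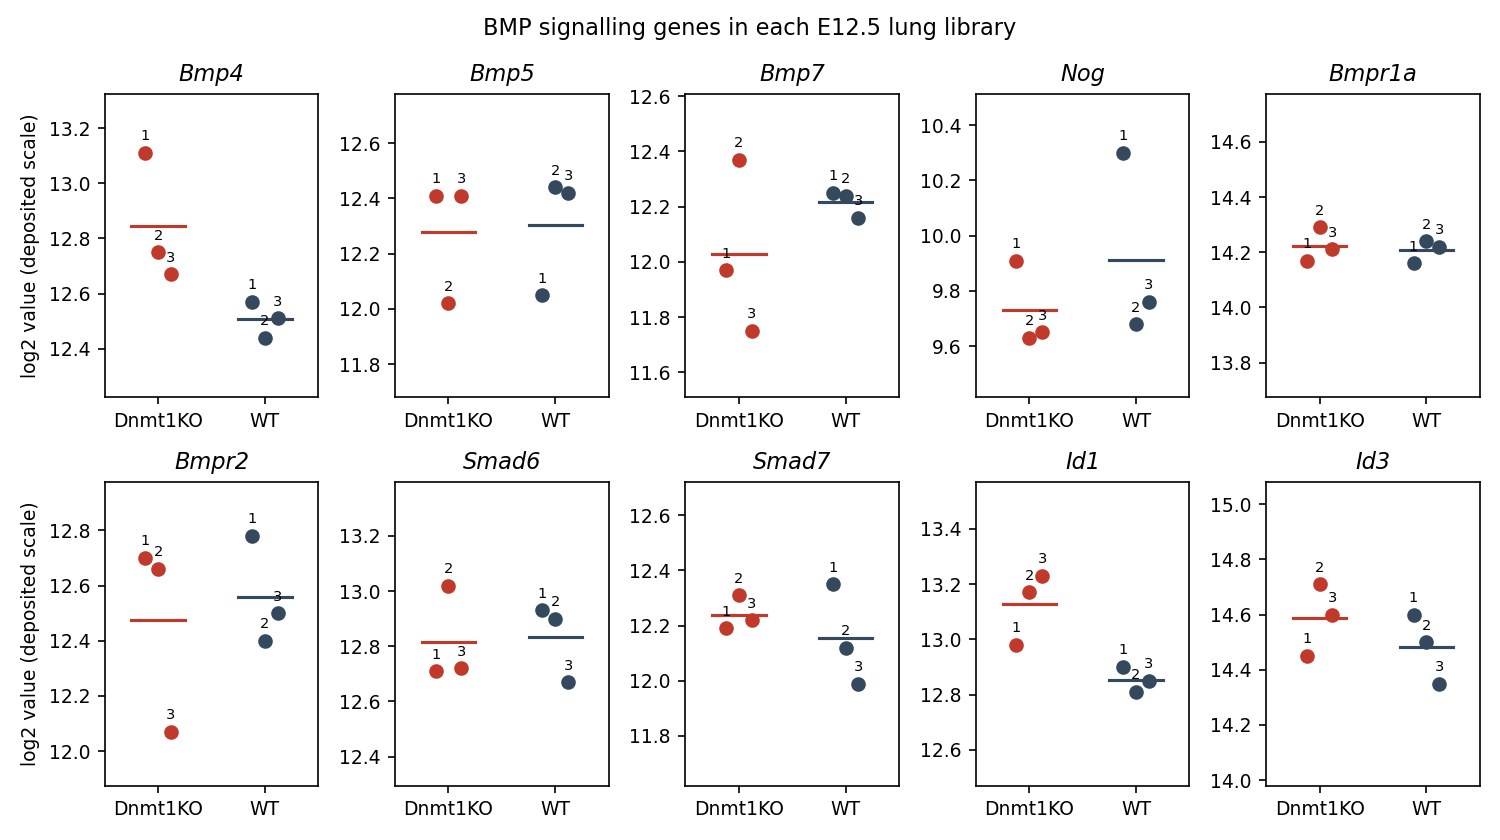
Deposited log2 value of each BMP gene (vertical axis, each panel spanning the same range) in the 3 Dnmt1KO libraries, left and red, and the 3 WT libraries, right and blue-grey. Numbers are replicates and bars are group means; the groups are apart in the Bmp4 and Id1 panels and overlap in the other 8.

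Among the ligands, Bmp4 had the largest fold change. It stood at 13.11, 12.75 and 12.67 in Dnmt1KO replicates 1, 2 and 3, against 12.57, 12.44 and 12.51 in WT replicates 1, 2 and 3, from 1577, 1362 and 1344 reads for Dnmt1KO and 1521, 1096 and 1324 for WT. All Dnmt1KO values lay above all WT values, and the highest was that of Dnmt1KO replicate 1, the library with 3 reads over the Y-linked genes. The mean was 12.84 ± 0.23 for Dnmt1KO and 12.51 ± 0.07 for WT (SD, n = 3 each), so that the Dnmt1KO libraries spread more widely. The log2 fold change was 0.34 ± 0.12 (SE), a level of 126% of WT with an interval of 1.04-fold to 1.53-fold. It did not pass (limma adjusted p = 0.85). The two-sided exact permutation test of Bmp4 alone had p = 0.1, below which a design of 3 against 3 cannot go. Without Dnmt1KO replicate 1 the log2 fold change was 0.20.

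The summed levels of markers of the distal tip, the cells known for Bmp4, overlapped between the groups. The 6 markers, which include the BMP target Id2, summed to 820, 620 and 727 CPM in Dnmt1KO replicates 1, 2 and 3, against 652, 675 and 595 in WT replicates 1, 2 and 3, with Dnmt1KO replicate 1 the highest in both the sum and Bmp4. Of the 6, 4 had a positive and 2 a negative fold change, with a median of 0.36 on the log2 scale, and none passed the test. Dnmt1KO replicate 1 also had the lowest sum of the 4 measured proximal airway markers, 10.1 CPM against 23.9 to 36.3 in the other libraries. Liver markers were apart, with 4 of 5 measured and a sum of 14.9 to 28.6 CPM in Dnmt1KO against 3.01 to 5.29 in WT. None of these 4 passed the test. The part of any of these lists in the Bmp4 value was not tested.

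For Bmp5 and Bmp7 the groups overlapped. Bmp5 had 12.41, 12.02 and 12.41 in Dnmt1KO replicates 1, 2 and 3, against 12.05, 12.44 and 12.42 in WT replicates 1, 2 and 3, with 1 low library in each group (log2 fold change -0.022 ± 0.14, limma adjusted p = 1). Its interval ran from 0.782-fold to 1.24-fold. Bmp7 had 11.97, 12.37 and 11.75 in Dnmt1KO against 12.25, 12.24 and 12.16 in WT. The WT values were close together (SD 0.05) while the Dnmt1KO values lay on both sides of them (SD 0.32), and the log2 fold change of -0.18 ± 0.15 did not pass (adjusted p = 1, interval 0.696-fold to 1.11-fold). Without Dnmt1KO replicate 2, which is the highest of the 6 libraries for Bmp7, it was -0.35. Annotated genes on the opposite strand overlap exons of Bmp4, Bmp5 and Bmpr1a, namely Gm15217, Gm26903 and Gm17110. They have no values here, and as the strand setting of the read counting is not given in the sources used here, their reads cannot be told apart from those of the 3 genes.

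Nog, the antagonist gene, had the fewest reads of the 10 genes, between 156 and 314 per library. It stood at 9.91, 9.63 and 9.65 in Dnmt1KO replicates 1, 2 and 3, against 10.30, 9.68 and 9.76 in WT replicates 1, 2 and 3. WT replicate 1 was above the other 5 libraries, and without it the log2 fold change of -0.18 ± 0.20 (limma adjusted p = 1) became 0.0088. The interval over all libraries was 0.647-fold to 1.20-fold, the widest of the 10. WT replicate 1 also had the highest sum of the 3 measured cartilage markers, 270 CPM against 121 to 179 in the other 5 libraries, and of the 5 neural and crest markers, 91.2 against 17.4 to 57.9; their part in the Nog value was not tested.

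Reads of Bmp4 and of the antagonist gene Nog can be set against each other within a library, where depth cancels. This ratio leaves out the other ligands and antagonists, and the transcripts may come from different cells. There were 9.17, 8.73 and 8.10 Bmp4 reads per Nog read in Dnmt1KO replicates 1, 2 and 3, against 4.84, 6.77 and 6.72 in WT replicates 1, 2 and 3. The groups were apart, and as each library was left out the difference of 0.52 on the log2 scale ran from 0.36 to 0.60. For Bmp4 reads per Bmp7 read the ratios were 2.20, 1.30 and 1.89 in Dnmt1KO against 1.25, 1.15 and 1.28 in WT, with Dnmt1KO replicate 2 just above the WT values. This difference was also 0.52 and ran from 0.36 without Dnmt1KO replicate 1 to 0.73 without Dnmt1KO replicate 2. These 2 were among 5 ratios computed after the values were seen, so they carry no test. Both contain Bmp4, for which the groups were already apart. In the other 3 (Bmp4 to Bmp5, Id1 to Id3 and Smad6 to Smad7) the groups overlapped.

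**Figure D2:**
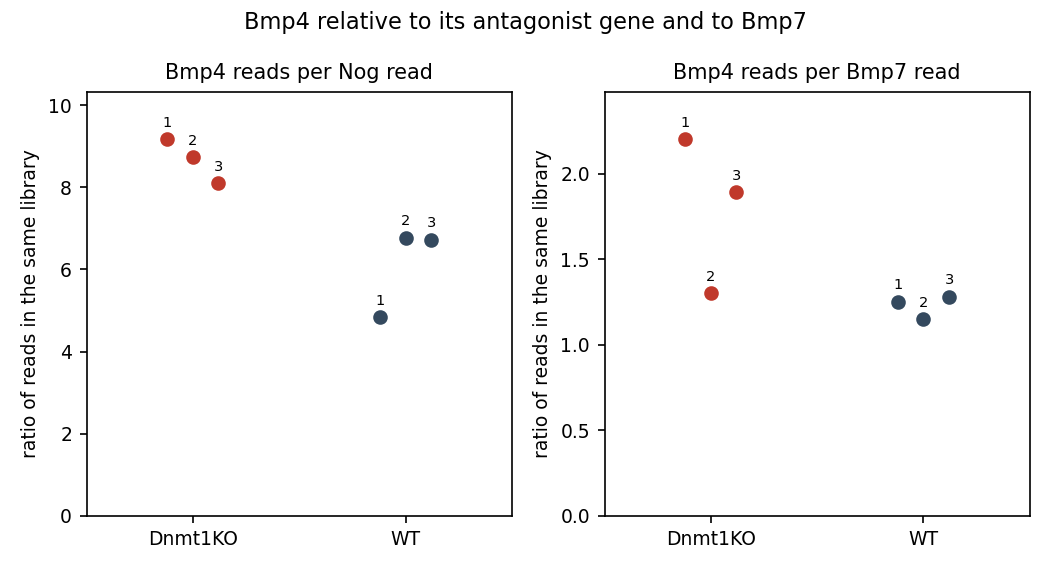
Reads of Bmp4 per read of Nog (left panel) and per read of Bmp7 (right panel) in each library, with Dnmt1KO in red at the left of each panel and WT in blue-grey at the right; numbers are replicates. The 3 Dnmt1KO libraries lie between 8.10 and 9.17 for Nog, above the WT libraries at 4.84 to 6.77, and for Bmp7 the lowest Dnmt1KO ratio of 1.30 is close to the highest WT ratio of 1.28.

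The receptors showed the narrowest and one of the wider spreads of the set. Bmpr1a, the type I receptor, stood at 14.17, 14.29 and 14.21 in Dnmt1KO against 14.16, 14.24 and 14.22 in WT. All 6 values lay within a narrow band, with SDs of 0.06 in Dnmt1KO and 0.04 in WT, and the interval of the difference was 0.901-fold to 1.14-fold (log2 fold change 0.019 ± 0.074, limma adjusted p = 1). Bmpr2, the type II receptor, is given per length and depth, in reads per kilobase of exon scaled to the library total (RPKM). It had 3.63, 3.52 and 2.34 RPKM in Dnmt1KO replicates 1, 2 and 3, against 3.83, 2.88 and 3.15 RPKM in WT replicates 1, 2 and 3. Dnmt1KO replicate 3 was the lowest of the 6, and without it the log2 fold change of -0.086 ± 0.18 (adjusted p = 1) became 0.12. The sign of neither receptor's difference was stable as libraries were left out, and Bmpr2 also turned with sample weights (0.033).

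The inhibitory Smads overlapped between the groups. Smad6, which acts mainly on BMP signals, had 12.71, 13.02 and 12.72 in Dnmt1KO against 12.93, 12.90 and 12.67 in WT (log2 fold change -0.017 ± 0.12, limma adjusted p = 1, interval 0.822-fold to 1.19-fold). Smad7, which also acts on TGF-beta signals, had 12.19, 12.31 and 12.22 in Dnmt1KO against 12.35, 12.12 and 11.99 in WT (0.092 ± 0.11, adjusted p = 1, interval 0.897-fold to 1.27-fold). Dnmt1KO replicate 2 was the highest Dnmt1KO library for both, as it was for Bmp7, Bmpr1a and Id3. That library also had a sum of 5 heart muscle markers of 293 CPM, against 23.5 to 57.5 in the other 5 libraries. Its lung epithelium sum of 566 CPM was the lowest of all libraries, and its lung mesenchyme sum of 2970 CPM was the highest. The part of these tissues in the values of the BMP genes was not tested. Without Dnmt1KO replicate 2 the log2 fold changes were -0.12 for Smad6, 0.056 for Smad7, -0.015 for Bmpr1a and 0.045 for Id3.

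Id1 and Id3 encode inhibitors of basic helix-loop-helix transcription factors and are read out as direct BMP targets. Id1 stood at 12.98, 13.17 and 13.23 in Dnmt1KO replicates 1, 2 and 3, against 12.90, 12.81 and 12.85 in WT replicates 1, 2 and 3, from 1441, 1814 and 1984 reads for Dnmt1KO and 1911, 1418 and 1681 for WT. The Dnmt1KO values were all above the WT values, the nearest pair being Dnmt1KO replicate 1 and WT replicate 1. The mean was 13.12 ± 0.13 for Dnmt1KO and 12.85 ± 0.05 for WT (SD, n = 3 each), a log2 fold change of 0.27 ± 0.09 (SE) and a level of 121% of WT. It did not pass (limma adjusted p = 0.739; p = 0.1 by the two-sided exact permutation test), and the interval was 1.04-fold to 1.39-fold. As each library was left out it ran from 0.22 to 0.34. Dnmt1KO replicate 3, the highest library for Id1, also had the highest sum of the 7 erythroid markers. That sum was 2170, 1810 and 2990 CPM in Dnmt1KO replicates 1, 2 and 3, against 1320, 1840 and 1810 CPM in WT replicates 1, 2 and 3. The fold change was positive for all 7 (median 0.52 on the log2 scale) and none passed the test; their part in the Id1 and Bmp4 values was not tested. Id3 had 14.45, 14.71 and 14.60 in Dnmt1KO against 14.60, 14.50 and 14.35 in WT, and these values overlapped (0.11 ± 0.10, adjusted p = 1, interval 0.921-fold to 1.26-fold). Dnmt1KO replicate 1, the highest library for Bmp4, was the lowest Dnmt1KO library for Id1 and for Id3.

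**Figure D3:**
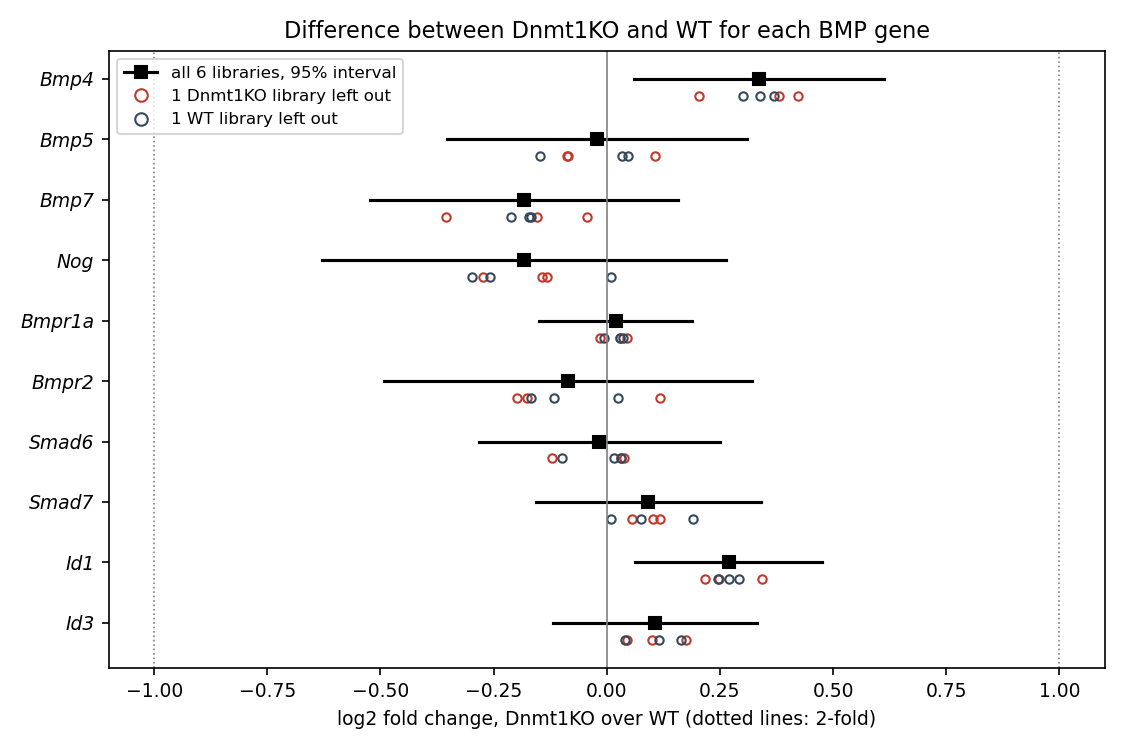
Log2 fold change of Dnmt1KO over WT for each of the 10 BMP genes (squares) with its 95% confidence interval (lines), and the value when each of the 6 libraries is left out (open circles, red for a Dnmt1KO library and blue-grey for a WT library). No interval reaches the dotted 2-fold lines, those of Bmp4 and Id1 lie above 0, and the other 8 include 0.

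Per length, the target genes were the most abundant transcripts of the set. The reads were divided by the exonic length of each gene in GENCODE vM21 (GRCm38) and by the library's total. On this scale, called RPKM, Id3 had 136 ± 12.0 in Dnmt1KO and 125 ± 10.3 in WT, and Id1 had 75.7 ± 6.71 for Dnmt1KO and 62.1 ± 2.54 for WT (SD, n = 3 each). Bmpr1a, Bmp4 and Smad6 followed, with means over all 6 libraries of 29.3, 28.8 and 22.2. Bmpr1a was above Bmp4 in 5 of the 6 libraries, the exception being Dnmt1KO replicate 1 with 28.6 for Bmpr1a and 38.6 for Bmp4, and the ranges of these 2 genes overlapped, as did those of Bmp4 and Smad6. Bmp5, Bmp7 and Smad7 came next at 12.3, 10.9 and 10.2, with overlapping ranges and each above the next in 4 of the 6 libraries. Nog at 5.28 and Bmpr2 at 3.23 were the lowest. The exonic length is the union of all annotated exons, 17983 bases for Bmpr2, so a gene whose long exons are little used is placed too low. The annotation used to count the reads is not given in the sources used here. Its exon lengths may differ from these, and close ranks may depend on that.

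**Figure D4:**
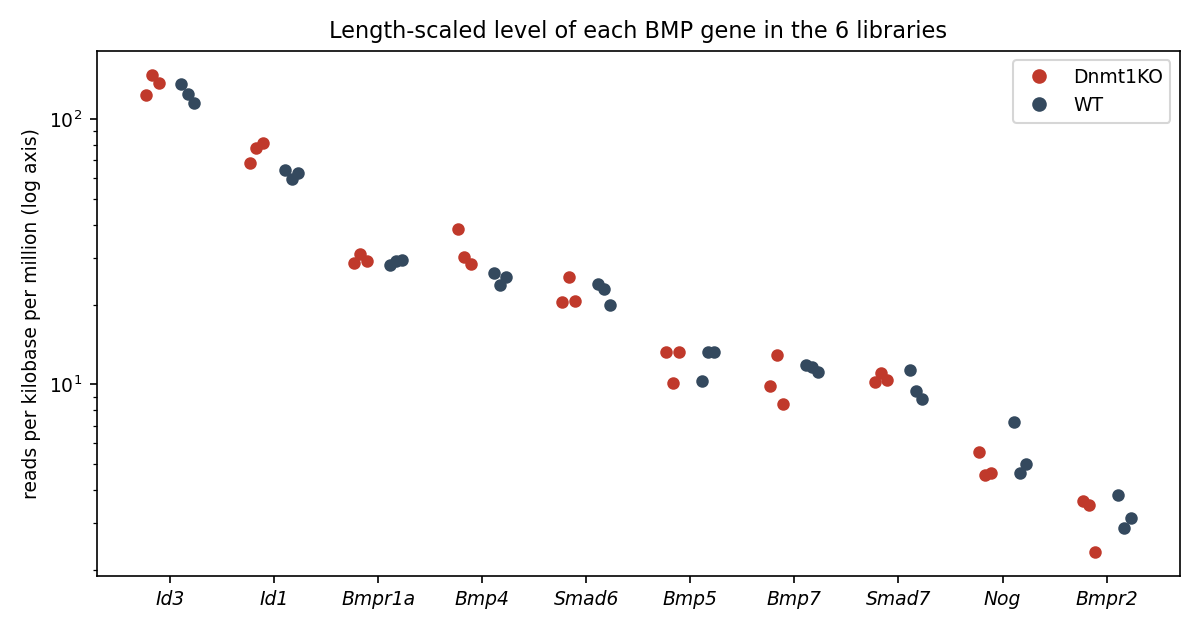
RPKM, reads per kilobase of exonic length scaled to the library total (log axis), for each BMP gene in the 3 Dnmt1KO libraries (red, left of each pair) and the 3 WT libraries (blue-grey, right), ordered by the mean. Id3 and Id1 lie above all other genes in every library, and Nog and Bmpr2 below all others.

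The other genes of the pathway were read from a list of 58, of which 50 had values; the remaining 8 (Bmp8a, Bmp10, Gdf2, Gdf7, Tll2, Hjv, Chrdl2 and Dlx5) were not analysed here. None of the 50 passed limma's test over all genes in either direction (0.290% of all genes passed). At an unadjusted p under 0.05 there were 5 of the 50, 1 higher and 4 lower in Dnmt1KO. Over all 14162 genes 4.52% had such a p, with 414 genes higher and 226 lower. Voom gave 0 and 5 of the 50, against 0.177% and 4.36% of all genes. The groups were apart in 14% of the 50, with 1 gene higher and 6 lower, against 4.79% higher and 3.99% lower over all genes. The median log2 fold change was -0.035, against -0.000059 over all genes, and it was 0.094 without WT replicate 1.

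Among the secreted antagonists and modulators, 7 of 16 had a positive and 9 a negative fold change, with a median of -0.066. Cer1, which encodes a secreted inhibitor of Nodal and BMP ligands, had the largest fold change of the list. Its reads numbered 7, 7 and 18 in Dnmt1KO replicates 1, 2 and 3, against 41, 42 and 55 in WT replicates 1, 2 and 3, and the groups were apart. By mean level Cer1 is among the lowest 25% of genes, so the fit without those genes did not hold it. The log2 fold change of -1.98 ± 0.43 (SE) did not pass (limma adjusted p = 0.198), except with sample weights (-2.27, adjusted p = 0.0454, the range over the alternatives that held Cer1 being 0.0454 to 0.923). It was -3.21 with quantile normalization, and -1.98 with median centring and -1.96 with scaling to the recovered totals or with voom. Nbl1, which encodes a BMP antagonist of the DAN family, had 398, 561 and 511 reads in Dnmt1KO replicates 1, 2 and 3, against 920, 617 and 751 in WT replicates 1, 2 and 3, and its log2 values were lower in every Dnmt1KO library than in any WT library (-0.43 ± 0.12, adjusted p = 0.507).

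Of the 9 receptors and coreceptors, 2 had a positive and 7 a negative fold change. The smallest p belonged to Rgma, a BMP coreceptor (-0.37 ± 0.13, limma adjusted p = 0.839), and Acvr2b, a type II receptor shared with activins (-0.26 ± 0.12, adjusted p = 1), and in both genes the groups were apart. Among the 6 measured ligands Bmp3, known as an inhibitory ligand, had -0.65 ± 0.30 and Bmp6 had 0.45 ± 0.33, both with adjusted p = 1 and with overlapping groups. The median absolute log2 fold change of the 6 ligands was 0.37, against 0.19 for the 16 antagonists and modulators. The proteases that free ligands or cleave their antagonists were 3 genes with positive fold changes, Bmp1 (0.12 ± 0.14) and Tll1 (0.19 ± 0.27) having the smallest p of them. The 9 Smads and Smad regulators had the smallest median absolute value of the 6 role groups, 0.049 against 0.079 over all genes. Their fold changes ran from -0.084 for the corepressor gene Ski to 0.15 for Smad9. Reads per library ran from 14 to 516 for the 6 ligands and from 493 to 7331 for these 9 genes. The medians are therefore not compared at like depth, and the part of depth in them was not tested.

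Of the 7 other target genes, Id2 had the largest fold change. Its reads numbered 2967, 2799 and 2774 in Dnmt1KO, against 2381, 1916 and 2420 in WT, with log2 means of 13.84 ± 0.16 for Dnmt1KO and 13.28 ± 0.09 for WT (SD, n = 3 each). The groups were apart and the level was 147% of WT, a log2 fold change of 0.56 ± 0.10 that did not pass (limma adjusted p = 0.0879). The interval was 1.26-fold to 1.73-fold. Id2 is also one of the distal tip markers. Id4, by contrast, had a log2 fold change of -0.28 ± 0.24 (adjusted p = 1), so the 4 Id genes had values of 0.27 (Id1), 0.56 (Id2), 0.11 (Id3) and -0.28 (Id4), and no test of the differences between them was run.

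**Figure D5:**
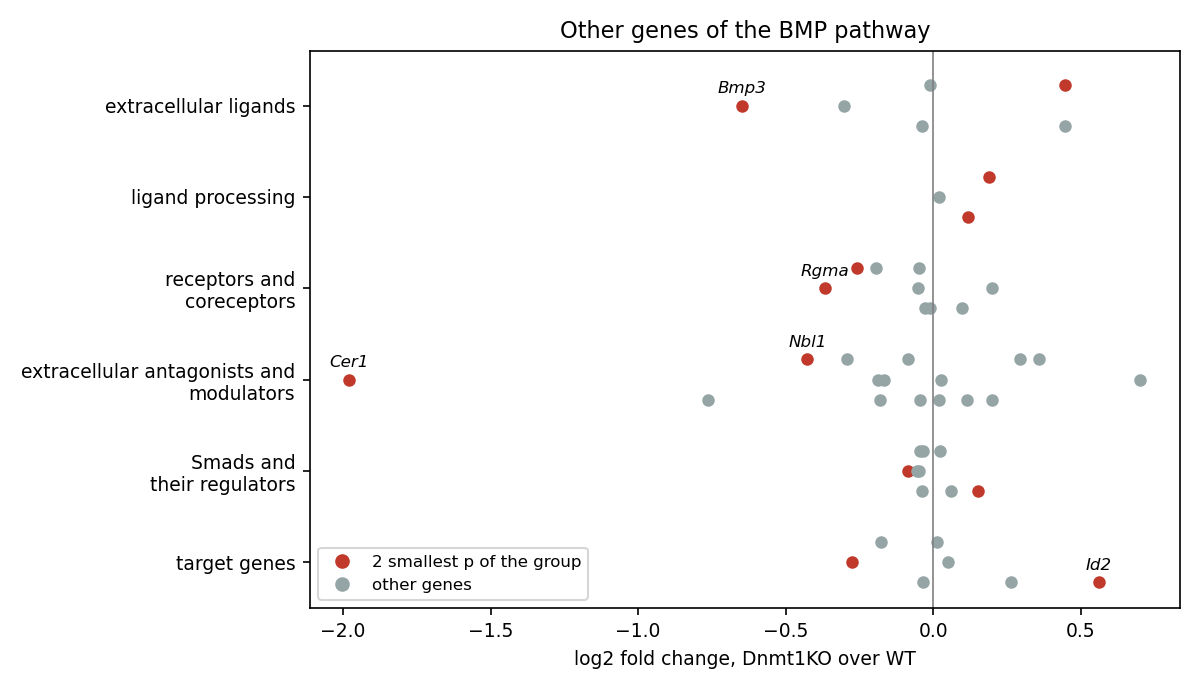
Log2 fold change of Dnmt1KO over WT for the 50 other genes of the BMP pathway, 1 point per gene, in rows by role; red points are the 2 genes with the smallest p in each row, and the vertical offset within a row only separates points. Cer1 lies far to the left at -1.98, Id2 at 0.56 is the highest target gene, and the Smads and their regulators lie between -0.084 and 0.15.

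Across the 6 libraries, Id2 was the gene most like Bmp4 among the members and the pathway list (Pearson r = 0.90, n = 6 libraries, given as a description; 0.88 without Dnmt1KO replicate 1). For Smad6 it was Bmp2 (0.94), for Bmpr2 it was Eng (0.92), for Nog it was Msx1 (0.90), for Smad7 it was Sostdc1 (0.88), for Id3 it was Smad7 (0.87), for Bmp7 it was Fstl3 (0.87), for Id1 it was Fst (0.78) and for Bmpr1a it was Bambi (0.69). Over all named genes, the 3 most like Bmp4 were Tctn1 (0.998), Abhd2 (0.984) and Cobll1 (0.983), which became 0.995, 0.923 and 0.921 without Dnmt1KO replicate 1. The points share library, depth and genotype. Each r is the highest over the other members and the 50 pathway genes, or among the highest over all named genes. With 6 points, such a choice can give high values for unrelated genes, so no relation between the genes is read from them.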

How the data were processed

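The data were 6 RNA-seq libraries of mouse lung, in groups set by the labelled genotype. The authors deposited 1 log2 value per gene and library; per the file headers the column is a signal with no stated unit, and log2 was read from the values. STAR, limma and the build mm9 appear in the submitters' processing notes, without roles or versions. The counter, annotation, gene filter and scaling were not given in the sources used here. In each library, 2 raised to the value was a whole number of reads plus 0.5, times a constant (100% of 14162 genes within 1e-06 reads), which gave the depths. The lowest gene total was 60 reads, so genes below it were not analysed here. Symbols came from GENCODE vM21 and matched 13967 identifiers. Counting error alone was 8.01% (Poisson SD) at the lowest Nog value.

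Values were fitted without further scaling in limma 3.58.1 (R 4.3.3), with genotype as the only term and moderation with trend and robust estimation, adjusted by Benjamini-Hochberg over all genes at 0.05. The fit was tested on simulated data. The design planned for log2, count or linear values was used in its log2 form. Alternatives were a replicate block, removal of the lowest 25% of genes, quantile normalization, median centring, scaling to recovered totals, an offset of 2 reads, no trend or robust estimation, sample weights, voom and leaving out each library. The members and lists were chosen with earlier results of these data known. The named pathway genes were those past the test and the 2 with the smallest p in each of 6 roles. The gene most like 1 member is not reported here.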

Additional observations from a re-analysis of the deposited data

How the results depend on the processing

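None of the 10 BMP genes passed under any of the 15 alternatives, the lowest adjusted p being 0.359 (Id1 with sample weights). Of 150 values, 135 kept their sign and 15 turned it, all of them in Bmp5, Nog, Bmpr1a, Bmpr2 and Smad6. As each library was left out, Bmp5 ran from -0.15 to 0.11, Nog from -0.30 to 0.0088, Bmpr1a from -0.015 to 0.045, Bmpr2 from -0.20 to 0.12, Smad6 from -0.12 to 0.037 and, among the other pathway genes, Tll1 from -0.076 to 0.46. With sample weights Bmpr2 was 0.033, Smad6 0.11 and Ski 0.023, and with quantile normalization Smad6 was 0.0075; the cause was not tested. Bmp4, Bmp7, Smad7, Id1 and Id3 kept their sign under all 15. With sample weights 1 of the other pathway genes, Cer1, was called lower (-2.27, adjusted p = 0.0454).

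Over all genes 40 were called higher and 1 lower. The counts were 26 and 0 with the replicate block, 0 and 0 without the lowest 25% of genes, 24 higher with voom, 0 lower without trend and robust estimation and 12 lower with sample weights. As each library was left out they ran from 15 to 42 higher and from 0 to 17 lower. The labels do not say that a replicate number marks a shared litter or day, so the main fit was planned without pairing. The deviations of libraries with the same replicate number from their group means correlated at -0.0027, -0.18 and 0.31 across genes. Libraries with different numbers were not compared in this way, so these values cannot decide whether the numbers pair the libraries. With the replicate block Bmp4 (limma adjusted p = 0.5, range over all alternatives 0.38 to 1) and Id1 (0.671, range 0.359 to 1) still did not pass.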
